A study of Mus musculus with 4 samples.

Results

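Genes of the germline and of the early embryo were examined in mouse embryonic stem cells (ESCs), the cultured counterpart of the inner cell mass of the blastocyst. They were 44 genes chosen by name, of which 14 act in meiosis, 14 in the piRNA pathway or as Tudor domain proteins, 9 are other germ cell genes and 7 mark the 2-cell-like state. The RNA-seq libraries were 2 from wild-type (WT) ESCs and 2 from *Bmal1* KO ESCs made with CRISPR-Cas9, and FPKM (fragments per transcript length and per number of mapped fragments) were given for 19645 features. A row was found for 43 of the 44 genes, and *Spo11* was not analysed here. Both genotypes were grown on gelatin in serum and LIF, and the KO line was 1 clone with a deletion in the exon of *Bmal1* (*Arntl*) that holds the start codon. The labels name no separate cultures behind the replicates, so genotype, clone and culture cannot be told apart, and p-values measure only the spread between these libraries.

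Germline genes encode the machinery of meiosis, the helicases and other proteins that silence transposons with small piRNAs, and the proteins that specify germ cells. Many of them are held silent in somatic cells by DNA methylation at CpG-rich promoters and by repressor complexes that contain E2F6 or the MGA and MAX pair. E2F6 recognises E2F-type motifs, and MGA with MAX recognises the E-box hexamer CACGTG, which is also the sequence bound by BMAL1 with CLOCK. ESCs transcribe part of this set at low to moderate levels, and a small, changing fraction of ESCs enters a state that resembles the 2-cell embryo, in which the *Zscan4* genes are active.

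The libraries had the profile of ESCs. All 8 ESC markers were at 40.9 FPKM or more in every library: *Pou5f1* lay between 1389 and 1620, *Dppa5a* between 2881 and 3045, *Zfp42* between 611 and 745, *Tdgf1* between 340 and 452, *Sox2* between 238 and 295, *Nanog* between 179 and 207, *Esrrb* between 147 and 202 and *Klf4* between 40.9 and 58.4. Of these, *Klf4* (log2 change -0.46, adjusted p = 0.0177) and *Tdgf1* (-0.36, adjusted p = 0.0322) were lower in KO. Of the fibroblast feeder markers, *Thy1* lay between 1.54 and 2.73 FPKM, the others with a row were at or under 0.296 FPKM, and *Postn* and *Lum* have no row; the list summed to 2.17 and 1.97 FPKM in WT and 3.22 and 2.53 in KO. Of the trophoblast markers, *Krt8* (16.7 to 23.1 FPKM) and *Krt18* (5.02 to 5.77) did not pass the test, while *Ascl2* had 0.429 and 0.419 FPKM in WT and 1.26 and 1.87 in KO (log2 change 1.65, adjusted p = 0.0187) and passed the filter on low values through KO. *Cdx2*, *Gata3* and *Hand1* were at or under 0.221 FPKM, *Elf5* has no row, and the trophoblast list summed to 29.6 and 26.4 FPKM in WT and 24.0 and 23.9 in KO. The 6 primitive endoderm markers were all at or under 0.709 FPKM and summed to 0.575 and 0.698 FPKM in WT and 1.43 and 1.39 in KO. The part of these markers in the results below was not tested. Features without a gene symbol took 26.8% and 37.3% of the summed FPKM in WT, most in WT replicate 2, and 19.0% and 18.1% in KO. With FPKM rescaled to the features that have a symbol, 8 members in place of 9 passed: *Tdrd12* (adjusted p = 0.0554) and *Gtsf1* (adjusted p = 0.0562) no longer did, and *Sycp3* (adjusted p = 0.0409) did, higher in KO. *Arntl* itself had 6.05 and 6.29 FPKM in WT and 5.95 and 5.92 in KO (log2 change -0.06, adjusted p = 0.750), which checks nothing, because a small frameshift deletion need not lower the RNA.

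Much of the germline set was transcribed in these ESCs, and the early embryo members were near 0. Of the 43 genes with a row, 23 (53.5%) had at least 1 FPKM in every library, a share close to the 55.3% of all features (10870 of 19645). They were 9 meiosis, 10 piRNA and Tudor and 4 germ cell genes, and none of the 2-cell-like genes. Of the 44, 30 reached a mean of 0.5 FPKM over the 4 libraries and were tested. *Syce2*, which encodes a protein of the central element of the synaptonemal complex, was the most abundant at a mean of 86.7 FPKM, above 94.0% of all features. *Tex19.1* (24.4), *Tdrd12* (17.2), *Stag3* (16.6) and *Nanos3* (10.3) were the others with a mean above 10 FPKM. Below the filter were *Sycp2*, *Mei1*, *Asz1*, *Tex19.2*, *Tex101*, *Brdt*, *Nobox*, *Pramel6*, *Pramel7*, *Zscan4c*, *Zscan4d*, *Tcstv3* and *Zfp352*, whose FPKM ran from 0 to 0.873.

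**Figure D1:**
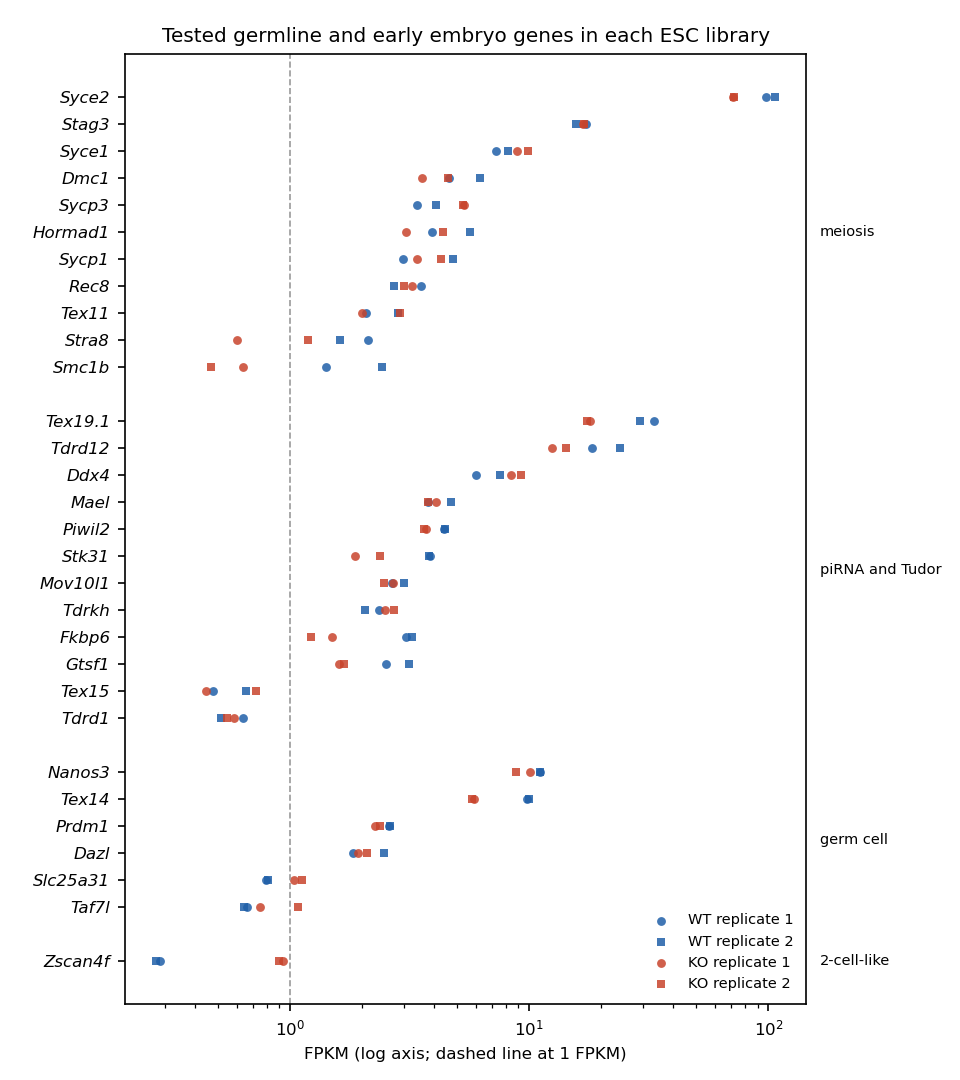
FPKM of the 30 tested genes (log axis) in each library, with WT in blue and KO in red, circles for replicate 1 and squares for replicate 2. *Syce2* stands at the right near 100 FPKM, and in *Smc1b*, *Fkbp6*, *Stk31*, *Tex19.1*, *Tex14* and *Zscan4f* the 2 genotypes are apart.

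KO and WT were compared with the limma moderated test on log2(FPKM + 0.1), adjusting p after Benjamini and Hochberg across the 12990 tested features, and a fold change on this scale understates the change of low genes. Of the 29 tested germline genes, 8 (27.6%) fell at an adjusted p under 0.05 and none rose, while 5.60% of all tested features fell and 6.85% rose. The 8 were *Tex19.1*, *Tex14*, *Fkbp6*, *Syce2*, *Smc1b*, *Stk31*, *Tdrd12* and *Gtsf1*, of which *Smc1b* and *Fkbp6* were also more than 2-fold lower (1.42% of all tested features were). The other 21 did not pass, with log2 changes from -1.04 to 0.50. That none rose depends on the setting. With a block for the replicate number in the fit, *Sycp3*, *Syce1* and *Ddx4* passed as higher in KO (adjusted p = 0.0297, 0.0324 and 0.0275). *Hormad1* and *Dmc1* passed there as lower (adjusted p = 0.0461 and 0.0310). The median log2 change was -0.13 over the 29 and -0.02 over all tested features, and *Tex19.1*, *Fkbp6* and *Tex14* had an adjusted p under 0.05 under all 15 other settings tried (at most 0.0294, 0.0425 and 0.0257). *Syce2* had it under 14 of these 15, *Smc1b* and *Stk31* under 13, *Tdrd12* under 10 and *Gtsf1* under 9. Both KO libraries were below both WT libraries for 13 of the 30 tested genes, as for 31.7% of all tested features, and above them for 7, as for 27.0%, so that the genotypes did not overlap for 20 of 30 genes beside 58.8% of all features. Over the 4 gene groups, 9 of the 30 tested genes passed (12.5% of all tested features) and 3 of them changed more than 2-fold (4.14%), and both counts hold *Zscan4f*, which passed the filter on low values only through KO and so had to differ. In bulk RNA, fewer expressing cells and less RNA per cell cannot be told apart.

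**Figure D2:**
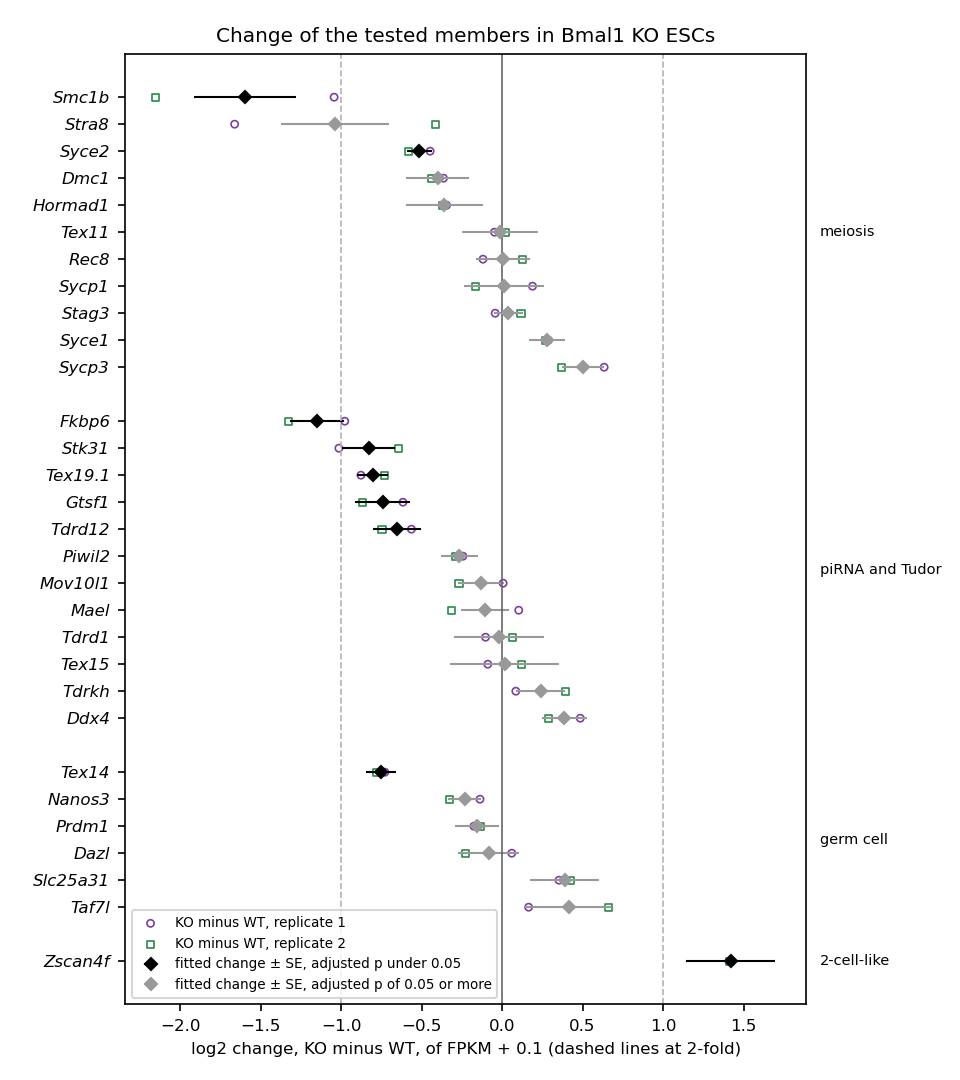
Log2 change of KO against WT for the 30 tested genes (x axis, of FPKM + 0.1), with diamonds and bars for the fitted change ± SE (black where the adjusted p is under 0.05) and open symbols for the difference within each replicate number. The 8 germline genes in black lie between -1.60 and -0.51, and *Zscan4f* lies at 1.42.

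In the piRNA and Tudor group, 5 of 12 tested genes fell, none rose and 7 did not pass, with a median log2 change of -0.20. The 5 made up 41.7%, beside 5.60% of all tested features that fell. *Fkbp6*, which encodes a co-chaperone of piRNA formation (chromosome 5 from 135291704 to 135350044, GRCm38), had 3.05 and 3.22 FPKM in WT and 1.501 and 1.22 in KO. Both KO values were less than either WT value, and KO was at 43.5% of WT (3.14 ± 0.117 against 1.36 ± 0.196, SD, n = 2), a log2 change of -1.15 (SE 0.17, adjusted p = 0.0136).

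*Tex19.1*, a gene found in mammals that restrains retrotransposons (chromosome 11 from 121146143 to 121148313), had 33.1 and 29.0 FPKM in WT and 17.96 and 17.4 in KO. The genotypes were well apart, at 31.0 ± 2.91 and 17.7 ± 0.381 FPKM (log2 change -0.80, SE 0.10, adjusted p = 0.00789). Its neighbour and paralog *Tex19.2* was at or under 0.522 FPKM in all 4 libraries and was not tested. The longest coding transcripts of *Tex19.1* and *Tex19.2* in the annotation match at 70.4% of the bases of the shorter.

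*Stk31*, which encodes a protein with a Tudor and a kinase domain (chromosome 6 from 49395504 to 49469502), had 3.86 and 3.79 FPKM in WT and 1.86 and 2.39 in KO, a log2 change of -0.83 (SE 0.16, adjusted p = 0.0300). *Tdrd12*, a Tudor domain helicase of secondary piRNA formation (chromosome 7 from 35493610 to 35537744), had 18.3 and 24.0 FPKM in WT and 12.4 and 14.3 in KO (-0.65, SE 0.15, adjusted p = 0.0448). The WT replicates of *Tdrd12* were wide apart, yet neither KO library reached the lower of them. *Gtsf1*, a zinc finger cofactor of PIWI proteins (chromosome 15 from 103402020 to 103498937), had 2.51 and 3.14 FPKM in WT and 1.60 and 1.67 in KO (-0.74, SE 0.17, adjusted p = 0.0460). The files give *Gtsf1* the same coordinates as *Nckap1l* and *BC048502*, so its value is uncertain, and *Nckap1l* did not pass the test (2.76 and 3.004 FPKM in WT, 3.02 and 3.02 in KO, log2 change 0.07, adjusted p = 0.773).

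The central enzymes of the pathway were not among the genes that fell. *Piwil2*, the Argonaute that carries piRNAs in fetal male germ cells, had 4.403 and 4.45 FPKM in WT and 3.70 and 3.63 in KO (log2 change -0.26, adjusted p = 0.189). *Ddx4*, the germ granule helicase known as VASA, had 5.97 and 7.54 FPKM in WT and 8.40 and 9.23 in KO (0.39, adjusted p = 0.137). The KO values of *Ddx4* were above and those of *Piwil2* below the WT values, and in neither case did the difference pass the test.
The helicase *Mov10l1*, which feeds piRNA precursors into the pathway, had 2.67 and 2.98 FPKM in WT and 2.69 and 2.46 in KO (-0.13, adjusted p = 0.591). *Mael*, a germ granule protein, had 3.78 and 4.71 FPKM in WT and 4.06 and 3.76 in KO (-0.11, adjusted p = 0.675). Their genotypes overlapped. The Tudor genes *Tdrkh* (2.35 and 2.05 FPKM in WT, 2.499 and 2.73 in KO, 0.24, adjusted p = 0.351) and *Tdrd1* (0.634 and 0.515, 0.583 and 0.544, -0.02, adjusted p = 0.972) and the piRNA factor *Tex15* (0.477 and 0.654, 0.443 and 0.721, 0.02, adjusted p = 0.980) did not pass either. *Asz1*, which anchors piRNA factors at mitochondria, was at or under 0.0316 FPKM. *Tdrkh* shares 36.7% of its exonic bases with *Oaz3*, so its value is uncertain.

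Among the meiosis genes, 2 of 11 fell (18.2%, beside 5.60% of all tested features), none rose and 9 did not pass. The median log2 change of -0.01 over the 11 lay beside the -0.02 over all tested features. *Smc1b*, the meiotic form of a cohesin core subunit (chromosome 15 from 85064689 to 85131957), had 1.42 and 2.42 FPKM in WT and 0.636 and 0.466 in KO. It was the lowest of the tested members relative to WT, at 28.7% (1.92 ± 0.707 against 0.551 ± 0.1197 FPKM, SD, n = 2), a log2 change of -1.60 (SE 0.31, adjusted p = 0.0299), although its WT replicates were far apart. The other meiotic cohesin subunits in the set did not pass. *Stag3* had 17.2 and 15.6 FPKM in WT and 16.7 and 17.0 in KO (0.04, SE 0.09, adjusted p = 0.815), and *Rec8* had 3.53 and 2.73 in WT and 3.25 and 2.98 in KO (0.00, SE 0.17, adjusted p = 0.992). The difference between cohesin subunits was not tested.

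The synaptonemal complex, the protein zipper between paired chromosomes, moved in no common direction. *Syce2* of the central element (chromosome 8 from 84872111 to 84893921) had 97.2 and 106.9 FPKM in WT and 71.3 and 71.4 in KO, a log2 change of -0.51 (SE 0.08, adjusted p = 0.0153). It shares feature coordinates with *Gcdh*, so its value is uncertain, and *Gcdh* had 20.5 and 21.8 FPKM in WT and 22.4 and 20.7 in KO (0.02, adjusted p = 0.886). *Syce1*, its partner in the central element, had 7.23 and 8.15 FPKM in WT and 8.85 and 9.87 in KO (0.28, adjusted p = 0.169). *Sycp3* of the lateral element had 3.41 and 4.07 FPKM in WT and 5.34 and 5.29 in KO (0.50, SE 0.13, adjusted p = 0.0648). For these genes both KO values were above both WT values, but neither passed the test. *Sycp3* shares its feature coordinates and 52.2% of its exonic bases with *Chpt1* (-0.26, adjusted p = 0.262), so its value is uncertain. *Sycp1*, the transverse filament, overlapped between genotypes (2.96 and 4.81 FPKM in WT, 3.39 and 4.28 in KO, 0.01, adjusted p = 0.979), and *Sycp2* was at or under 0.157 FPKM.

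The members that act in recombination and in entry into meiosis were not called. *Stra8*, the retinoic acid target that starts meiosis, had 2.11 and 1.62 FPKM in WT and 0.598 and 1.19 in KO, a log2 change of -1.04 (SE 0.34, adjusted p = 0.105). Its groups did not overlap, but the KO replicates were far apart. *Dmc1*, the meiotic strand exchange recombinase, had 4.60 and 6.25 FPKM in WT and 3.55 and 4.58 in KO (-0.40, adjusted p = 0.237). *Hormad1*, a protein of the chromosome axis, had 3.91 and 5.66 FPKM in WT and 3.06 and 4.35 in KO (-0.36, adjusted p = 0.371). In both, replicate 2 was above replicate 1 in each genotype. *Tex11*, an X-linked gene of crossover formation, overlapped between genotypes (2.07 and 2.83 FPKM in WT, 2.005 and 2.87 in KO, -0.01, adjusted p = 0.974), and *Mei1*, needed for double-strand breaks, was at or under 0.0340 FPKM.

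Of the 6 other germ cell genes tested, *Tex14* fell (16.7%, beside 5.60% of all tested features) and 5 did not pass. *Tex14*, needed for the bridges between dividing germ cells, had 9.75 and 9.98 FPKM in WT and 5.85 and 5.77 in KO, a log2 change of -0.75 (SE 0.09, adjusted p = 0.00945). The replicates of each genotype were close together. Its feature, however, spans 973 kb of chromosome 11 (from 86582553 to 87555988) and carries the same coordinates as 12 other genes, so its value is uncertain. None of the 11 of these 12 that were tested passed (adjusted p from 0.166 to 0.937).
*Nanos3*, which keeps primordial germ cells alive, had 11.1 and 11.1 FPKM in WT and 10.1 and 8.81 in KO (-0.23, adjusted p = 0.20). *Prdm1*, which specifies primordial germ cells and is also known as BLIMP1, had 2.58 and 2.62 FPKM in WT and 2.27 and 2.37 in KO (-0.15, adjusted p = 0.504). *Dazl*, a translational regulator of germ cells, had 1.83 and 2.46 FPKM in WT and 1.92 and 2.09 in KO (-0.08, adjusted p = 0.803). These early germ cell genes were thus present in both genotypes at levels that the test did not separate. The testis forms *Taf7l* of a TFIID subunit (0.658 and 0.642 FPKM in WT, 0.750 and 1.07 in KO, 0.41, adjusted p = 0.359) and *Slc25a31* of the ADP/ATP carrier (0.792 and 0.808, 1.04 and 1.12, 0.39, adjusted p = 0.285) were higher in KO without passing. *Tex101* and *Brdt*, of later male germ cells, and the oocyte factor *Nobox* were at or under 0.266 FPKM.

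The only early embryo member tested, *Zscan4f*, was higher in KO. *Zscan4f* (chromosome 7 from 11397915 to 11402318), a zinc finger gene of the 2-cell embryo linked to telomere maintenance, had 0.286 and 0.274 FPKM in WT and 0.935 and 0.898 in KO. The KO values were 3.27-fold the WT values by their means, a log2 change of 1.42 (SE 0.28, adjusted p = 0.0296), a call that 2.72% of all tested features shared and that was lost without KO replicate 1 (adjusted p = 0.0982) or KO replicate 2 (adjusted p = 0.0802). *Zscan4f* passed the filter on low values only through its KO libraries, so it had to differ in order to be tested. Its copies lay below the filter. *Zscan4c* had 0.153 and 0.0884 FPKM in WT and 0.873 and 0.660 in KO, and *Zscan4d* had 0.133 and 0.0515 in WT and 0.305 and 0.254 in KO. With no filter on low values, the log2 change was 1.98 for *Zscan4c* (adjusted p = 0.0370) and 1.01 for *Zscan4d* (adjusted p = 0.137).
Summed over the 5 *Zscan4* genes with a row (*Zscan4a*, *Zscan4b*, *Zscan4c*, *Zscan4d* and *Zscan4f*), the level was 0.714 and 0.674 FPKM in WT and 3.25 and 2.56 in KO, 4.18-fold by their means. The longest transcripts of *Zscan4c*, *Zscan4d* and *Zscan4f* match over 95.5% to 97.3% of the shorter, so reads may be shared between them and the values of single copies are uncertain. The other early embryo members stayed at the floor. *Pramel6*, *Pramel7*, *Tcstv3* and *Zfp352* were at or under 0.0958 FPKM in every library, with at least 1 library listed at 0 for each but *Pramel7*.

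**Figure D3:**
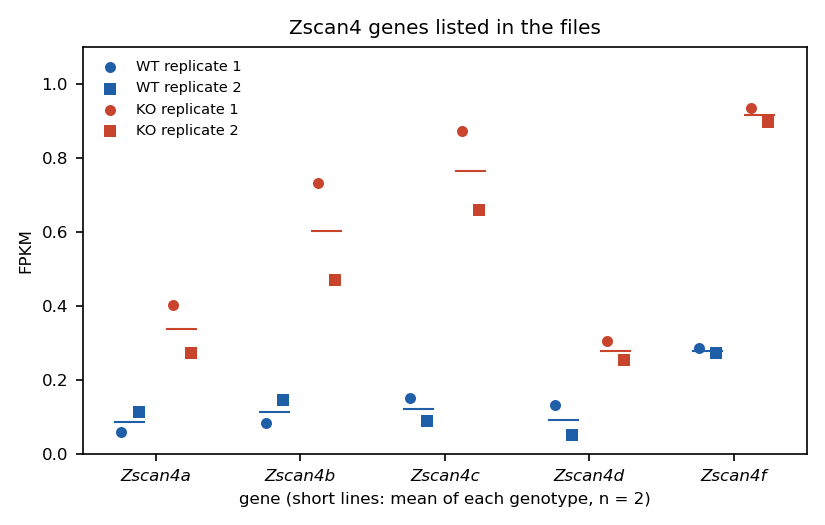
FPKM (linear axis from 0) of the 5 *Zscan4* genes with a row, per library, with short lines at the mean of each genotype (n = 2). In every copy both KO libraries lie above both WT libraries, and the highest value is 0.935 FPKM.

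The promoters of the set were read from RefSeq (GRCm38.p6, 250 bases before to 50 after the start of each gene), and 39 of the 44 genes matched; *Tex11*, *Piwil2*, *Tex15*, *Tcstv3* and *Spo11* did not. The sequences below show genes that fell (*Fkbp6*, *Stk31*, *Smc1b*, *Tex19.1*) beside genes with E-boxes that did not pass (*Sycp3*, *Ddx4*) and *Zscan4f*. They run 5′ to 3′ on the strand of the gene in lower case, with capitals for the E-box hexamer CACGTG, which reads the same on both strands, and for the E2F-type heptamer TTCCCGC or its reverse complement GCGGGAA. No E-box overlapped an E2F-type match in the promoters of the set.
Fkbp6 promoter, chr5:135349995-135350294, minus strand: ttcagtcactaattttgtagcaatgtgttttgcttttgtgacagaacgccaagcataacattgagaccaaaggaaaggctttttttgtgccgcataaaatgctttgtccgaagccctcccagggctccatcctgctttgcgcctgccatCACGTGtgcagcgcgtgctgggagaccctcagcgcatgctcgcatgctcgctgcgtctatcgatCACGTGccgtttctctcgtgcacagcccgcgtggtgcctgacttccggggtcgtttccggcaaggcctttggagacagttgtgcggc
Stk31 promoter, chr6:49395289-49395588, plus strand: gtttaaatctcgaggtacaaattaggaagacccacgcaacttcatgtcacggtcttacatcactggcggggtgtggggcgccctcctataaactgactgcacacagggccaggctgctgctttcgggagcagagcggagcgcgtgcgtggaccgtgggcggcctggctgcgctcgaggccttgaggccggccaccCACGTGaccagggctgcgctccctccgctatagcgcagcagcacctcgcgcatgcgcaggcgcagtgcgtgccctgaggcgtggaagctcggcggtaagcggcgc
Smc1b promoter, chr15:85131908-85132207, minus strand: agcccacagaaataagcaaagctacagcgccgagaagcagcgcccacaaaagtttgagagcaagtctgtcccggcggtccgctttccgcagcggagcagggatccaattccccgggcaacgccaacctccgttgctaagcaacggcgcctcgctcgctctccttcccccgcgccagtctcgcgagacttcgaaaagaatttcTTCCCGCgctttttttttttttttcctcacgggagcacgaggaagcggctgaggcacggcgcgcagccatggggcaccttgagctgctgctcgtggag
Tex19.1 promoter, chr11:121145893-121146192, plus strand: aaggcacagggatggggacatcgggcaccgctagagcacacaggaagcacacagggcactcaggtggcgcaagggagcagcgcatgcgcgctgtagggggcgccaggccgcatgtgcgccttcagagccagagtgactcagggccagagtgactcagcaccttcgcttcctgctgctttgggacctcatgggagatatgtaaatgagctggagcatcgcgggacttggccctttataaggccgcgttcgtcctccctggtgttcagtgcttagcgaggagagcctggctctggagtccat
Sycp3 promoter, chr10:88459337-88459636, plus strand: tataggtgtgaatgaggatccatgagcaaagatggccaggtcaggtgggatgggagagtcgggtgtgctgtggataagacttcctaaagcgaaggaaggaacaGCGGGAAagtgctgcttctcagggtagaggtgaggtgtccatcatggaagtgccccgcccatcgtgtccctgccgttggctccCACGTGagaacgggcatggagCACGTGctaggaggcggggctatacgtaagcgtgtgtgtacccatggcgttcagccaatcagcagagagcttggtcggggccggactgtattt
Ddx4 promoter, chr13:112652261-112652560, minus strand: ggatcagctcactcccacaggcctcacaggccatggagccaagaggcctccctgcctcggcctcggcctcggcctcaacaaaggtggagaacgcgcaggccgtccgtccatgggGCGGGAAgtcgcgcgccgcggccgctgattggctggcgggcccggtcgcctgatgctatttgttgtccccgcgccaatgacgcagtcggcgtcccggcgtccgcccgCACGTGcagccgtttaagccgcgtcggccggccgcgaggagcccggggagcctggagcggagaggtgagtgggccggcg
Zscan4f promoter, chr7:11397665-11397964, plus strand: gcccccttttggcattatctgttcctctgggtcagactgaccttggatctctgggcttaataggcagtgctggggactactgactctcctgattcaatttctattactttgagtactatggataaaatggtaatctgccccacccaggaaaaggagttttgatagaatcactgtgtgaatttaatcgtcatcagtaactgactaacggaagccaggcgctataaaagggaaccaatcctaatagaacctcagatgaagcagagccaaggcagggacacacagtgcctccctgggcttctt
*Fkbp6* and *Sycp3* each hold 2 E-boxes, *Stk31* and *Ddx4* hold 1, and *Smc1b* and *Tex19.1* hold none. *Smc1b*, *Sycp3* and *Ddx4* each hold 1 E2F-type heptamer. In *Fkbp6* the E-boxes start 101 and 37 bases before the gene's start, in *Sycp3* 64 and 43 bases before it, in *Stk31* 55 and in *Ddx4* 29 bases before it.

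An E-box was present in 13 of the 39 promoters (33.3%), against 7.15% of all 32851 promoters of the same length and 10.2% of the 11166 promoters of genes with a tested feature. The 13 belonged to *Sycp1*, *Sycp3*, *Stag3*, *Hormad1*, *Mael*, *Tdrd1*, *Mov10l1*, *Fkbp6*, *Stk31*, *Ddx4*, *Taf7l*, *Slc25a31* and *Brdt*. They made up 6 of 12 promoters of the piRNA and Tudor group, 4 of 12 of the meiosis group, 3 of 9 of the germ cell group and 0 of 6 of the 2-cell-like group. An E2F-type heptamer was present in 7 of the 39 (17.9%, against 4.60% of all promoters and 8.73% of those of tested genes), in *Sycp3*, *Stag3*, *Smc1b*, *Hormad1*, *Ddx4*, *Tex14* and *Slc25a31*. The germline promoters were rich in CpG, with a median ratio of observed to expected CpG of 0.713, near the 0.762 of the promoters of tested genes and above the 0.384 of all promoters. Those of the 2-cell-like genes were poor in CpG, from 0.0637 to 0.242.
Genes that fell were found both with and without an E-box. Of the 12 tested genes with an E-box, 2 fell (*Fkbp6* and *Stk31*), 6 were lower and 6 higher by sign, and the median log2 change was -0.0027. Of the 15 tested genes with a promoter without an E-box, 6 fell (*Tex19.1*, *Tex14*, *Syce2*, *Smc1b*, *Tdrd12* and *Gtsf1*) and 1 rose (*Zscan4f*). By sign, 11 of the 15 were lower and 4 higher, and the median was -0.40. Of all tested features, 5.60% fell. The difference between genes with and without an E-box was not tested. A match describes letters in a window and does not show binding.

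**Figure D4:**
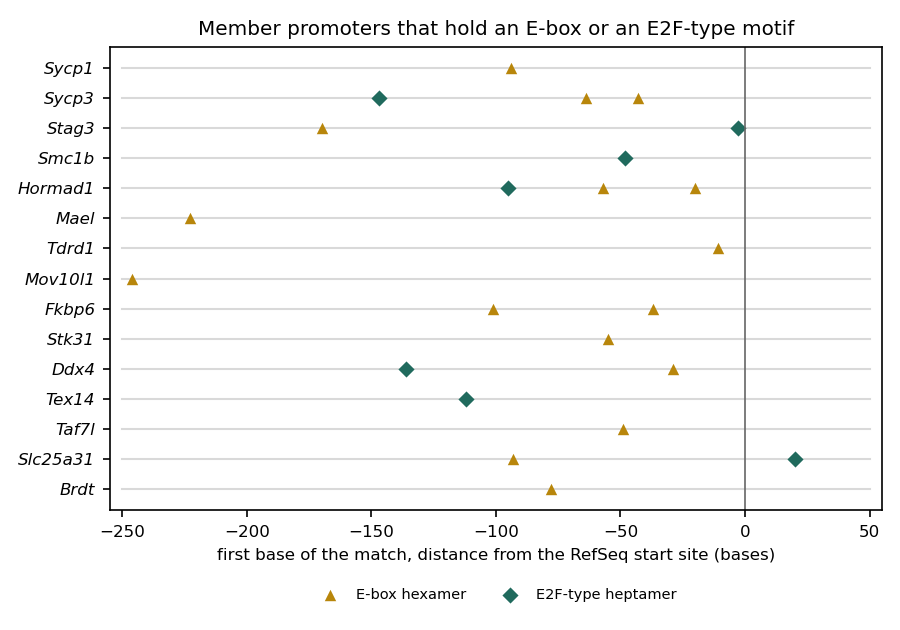
Position of each E-box hexamer (triangles) and E2F-type heptamer (diamonds) in the 15 member promoters that hold one, as the distance in bases of the match's first base from the RefSeq start site (x axis, vertical line at the start). The E-boxes run from 246 bases before the start in *Mov10l1* to 11 before it in *Tdrd1*.

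Other genes of the same processes, from lists of related genes, showed mixed directions. Of 19 other tested meiosis genes, 6 fell and 1 rose, with a median log2 change of -0.39. Those that passed made up 36.8%, beside 12.5% of all tested features in either direction. *Hormad2*, the partner of *Hormad1* on unsynapsed axes, had 4.82 and 5.79 FPKM in WT and 1.60 and 1.80 in KO (-1.58, adjusted p = 0.00532). *Syce3* of the central element had 3.55 and 3.44 FPKM in WT and 1.19 and 1.78 in KO (-1.21, adjusted p = 0.0224), and *4930447C04Rik*, also known as *Six6os1* and of the same element, had 12.4 and 14.9 in WT and 6.65 and 8.15 in KO (-0.88, adjusted p = 0.0184). With *Syce2*, 3 genes of the central element were thus lower in KO, while *Syce1* and *Tex12*, also of this element, did not pass. *Tex12* had 1.22 and 0.815 FPKM in WT and 0.595 and 0.678 in KO (-0.58, adjusted p = 0.230). *Ccdc36*, needed for double-strand breaks, rose from 0.643 and 0.655 FPKM to 1.46 and 1.46 (1.06, adjusted p = 0.0289). The most abundant were *Mnd1* (65.0 to 77.5 FPKM, -0.09, adjusted p = 0.60) and *Trip13*, the ATPase that strips HORMAD proteins from axes (51.0 and 53.1 FPKM in WT, 39.4 and 40.0 in KO, -0.39, adjusted p = 0.0257). *Trip13* shares its feature coordinates with *Brd9* (0.27, adjusted p = 0.184), so its value is uncertain.

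Of 12 other tested piRNA and Tudor genes, 2 fell and 10 did not pass (median -0.14). The share that passed was 16.7%, beside 12.5% of all tested features in either direction. *Rnf17*, a Tudor protein of germ granules, had 8.32 and 10.02 FPKM in WT and 4.54 and 5.61 in KO (-0.84, adjusted p = 0.0237). *Prmt5*, which makes the methylarginine that Tudor domains bind, had 94.6 and 93.3 FPKM in WT and 75.8 and 73.1 in KO (-0.34, adjusted p = 0.0343), and its partner *Wdr77* had 71.3 and 73.2 in WT and 65.1 and 70.7 in KO (-0.09, adjusted p = 0.481), an uncertain value, since its feature shares coordinates with *Atp5f1*. Of 18 other tested germ cell genes, 7 rose and 3 fell (median 0.19), a share of 55.6% that passed beside the same 12.5%. *Rhox5*, an X-linked homeobox gene, had 2.48 and 3.33 FPKM in WT and 19.95 and 17.6 in KO (2.66, adjusted p = 0.00169), and *Rhox9* of the same cluster had 0.408 and 0.699 in WT and 2.07 and 2.45 in KO (1.88, adjusted p = 0.0140). *Tex13b* rose from 0.0270 and 0.0898 FPKM to 1.24 and 0.815 (2.84, adjusted p = 0.0139), and *Ldhc*, the sperm lactate dehydrogenase, fell from 1.75 and 2.32 to 0.508 and 0.173 (-2.38, adjusted p = 0.0224); each passed the filter through its higher genotype. *Ifitm3*, a marker of early primordial germ cells, was the most abundant and rose from 181.7 and 174.4 to 300.6 and 288.4 FPKM (0.73, adjusted p = 0.00554), while *Ifitm1* did not pass (149 to 201 FPKM, 0.19, adjusted p = 0.369).

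Of 42 other early embryo genes, 32 had a row and only 6 reached the filter. Of these 6, 2 fell and 1 rose, a share of 50% that passed beside 12.5% of all tested features in either direction. *Gm2016*, which passed through KO, had 0.226 and 0.181 FPKM in WT and 0.904 and 0.747 in KO (1.61, adjusted p = 0.0302), *Pramef12* had 13.5 and 13.3 in WT and 9.12 and 8.56 in KO (-0.60, adjusted p = 0.0149), and *Dppa2* had 92.2 and 98.8 in WT and 73.7 and 74.3 in KO (-0.37, adjusted p = 0.0318). *Dppa4*, the partner of *Dppa2* in activating 2-cell genes, did not pass at 110 to 120 FPKM (0.01, adjusted p = 0.957). *Dux*, a transcription factor that turns on 2-cell genes and chosen here after its values were seen, was at or under 0.0738 FPKM in each library.

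All 26 repressors of germline genes on the list had at least 1 FPKM in every library, and 21 did not pass the test (median -0.06). *Dnmt3b*, a de novo DNA methyltransferase, fell most, from 61.3 and 62.0 FPKM in WT to 37.1 and 35.0 in KO (-0.77, adjusted p = 0.00522). Its cofactor *Dnmt3l* (246 and 239 FPKM in WT, 197 and 188 in KO, -0.34, adjusted p = 0.0366), the corepressor *Trim28* (941 and 923, 724 and 718, -0.37, adjusted p = 0.0306) and *Tfdp1*, the dimer partner of E2F proteins (162 and 165, 124 and 132, -0.35, adjusted p = 0.0334), fell by less. The feature of *Dnmt3l* has the coordinates of *Aire*, which was lower too (8.23 and 7.74 FPKM in WT, 5.57 and 4.07 in KO, -0.73, adjusted p = 0.0432), so the value of *Dnmt3l* is uncertain. *Atf7ip*, which stabilises the histone methyltransferase SETDB1, rose from 11.2 and 12.6 to 15.9 and 17.2 FPKM (0.48, adjusted p = 0.0352). *E2f6* (6.49 and 7.36 FPKM in WT, 8.19 and 8.33 in KO), *Mga* (16.6 and 19.0, 14.2 and 15.8) and *Max* (57.1 and 52.0, 52.3 and 50.3) did not pass. These values move beside those of the members, and their part in them was not tested.

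**Figure D5:**
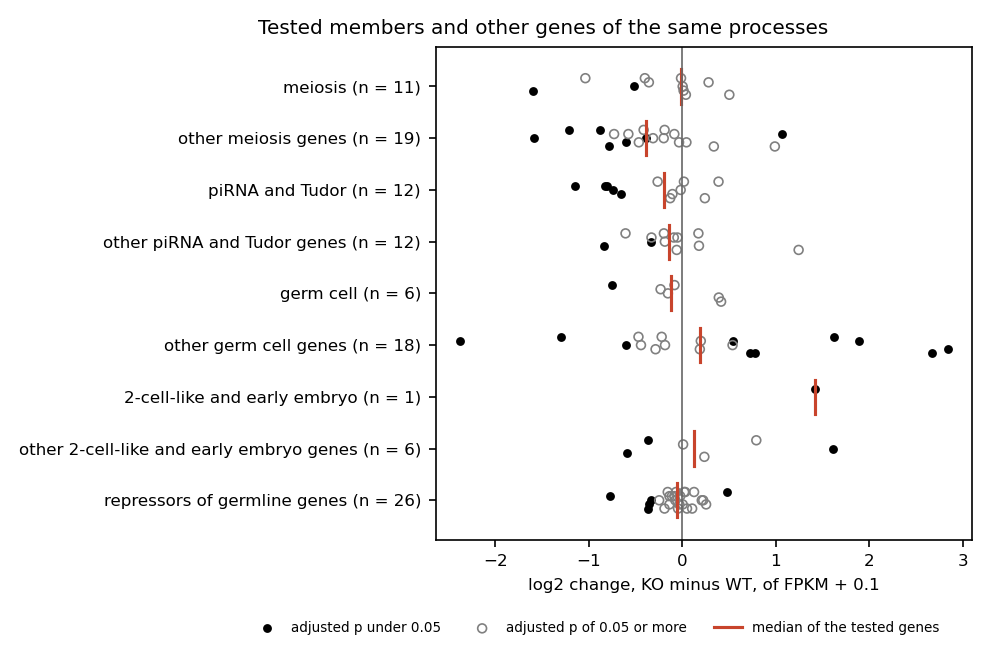
Log2 change of KO against WT (x axis, of FPKM + 0.1) for each tested gene of the 4 member groups, of 4 lists of other genes of the same processes and of the list of repressors. Filled points passed an adjusted p of 0.05, open points did not, and red bars mark medians, which run from -0.39 (other meiosis genes) to 0.19 (other germ cell genes) apart from the single 2-cell-like gene.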

How the data were processed

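RNA-seq was deposited for 2 WT and 2 *Bmal1* KO ESC libraries. The deposited unit is FPKM, which the authors made with Cufflinks 2.2.1 from reads placed on GRCm38 by TopHat2 2.1.1 and Bowtie2 2.3.0, after Trizol extraction and removal of ribosomal RNA. Whether the counting used strand is not given in the sources used here. FPKM hold no read numbers, so no library's depth is known, and precision was judged from the spread between replicates. The files count starts from 0, so 1 was added.

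Groups and replicate numbers came from the sample labels. The members and gene lists were chosen with earlier results of these data known, so no list was tested as a set. Rows were matched by symbol, and merged symbols were split. Of the 19645 features, the 12990 with a mean FPKM of at least 0.5 were tested as log2(FPKM + 0.1) in limma 3.58.1 (R 4.3.3), with a variance trend and Benjamini-Hochberg adjustment. Calls needed more than a 2-fold change besides an adjusted p under 0.05. With 2 against 2 libraries, the smallest exact permutation p is 0.333, so none was used. In simulated data for this comparison (12990 features), 198 of 200 features changed by a log2 value of 1.5 or more were called. Of the unchanged features, 0 were called. The simulated noise was normal, with a spread set by the mean level alone and no pairing of libraries. It was thus simpler than the real data, whose rate of false calls was not measured. Smaller changes were not simulated, so their recovery was not tested. Most of the germline genes that fell changed by less than 1.5. Every member with a mean of at least 0.5 FPKM is named with all values and lower ones by their range. From each other list the text names up to 4 genes past an adjusted p of 0.05 with the largest changes and the 2 most abundant, all repressors past it, *Arntl* and the ESC markers. *E2f6*, *Mga* and *Max* were named outside this rule for their motifs, *Zscan4a* and *Zscan4b* for their family, *Tex12* for its complex and *Dux* for its role, and genes that share coordinates with a named gene. *Zscan4a*, *Zscan4b* and *Dux*, which lie below the filter, were chosen after their values were seen. Gene overlaps and transcripts came from GENCODE M21, transcripts were aligned with edlib, and promoters came from RefSeq (GRCm38.p6). Alternatives were other pseudocounts (1 and 0.01), filters, scalings, variance models and sums over shared symbols, a replicate block, and each library left out. Leaving out features without a symbol, and rescaling to those with one, were chosen after seeing the data, because the share of FPKM in such features differed between genotypes.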

Additional observations from a re-analysis of the deposited data

How the results depend on the processing

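Of the members, 9 had an adjusted p under 0.05 from limma (3 also past 2-fold). Of all tested features, 1618 had it in the main setting, 1165 with no variance trend and 4052 when a replicate block was fitted. The member count was 5 with no variance trend and 14 under the block. The block kept all 9 and added *Sycp3*, *Syce1* and *Ddx4* (higher in KO) and *Hormad1* and *Dmc1* (lower). The labels do not say that equal numbers mark a shared batch. In 9059 of the 12990 tested features, and in 17 of the 30 tested members, same-numbered libraries deviated from their group means in the same direction. Over all tested features these deviations were related by rank (Spearman's rho 0.39) but hardly by size (Pearson's r 0.07), and features are not independent. Among features under 0.1 FPKM in both libraries, 21.4% and 24.7% had a ratio within 0.05 (log2) of the commonest one in the same-numbered WT and KO pairs, against 7.68% to 8.84% in the other 4 pairs. The main test fitted no pairing. No label names one, so whether equal numbers pair the libraries could not be settled. Without 1 library it ran from 5 (without KO replicate 1) to 11, and the members called from 2 to 4. Without KO replicate 1, *Stk31*, *Tdrd12*, *Gtsf1* and *Zscan4f* did not pass (adjusted p 0.0575, 0.0602, 0.0846 and 0.0982), *Gtsf1* did not without WT replicate 2 (0.159), and *Gtsf1* and *Zscan4f* did not without KO replicate 2 (0.0653 and 0.0802). Other members passed without WT replicate 1 (*Hormad1* 0.0462, *Dmc1* 0.0352), WT replicate 2 (*Sycp3* 0.0288, *Ddx4* 0.0302, *Stra8* 0.0102) or KO replicate 2 (*Stra8* 0.0110), and *Sycp3* did with only features that have a symbol (0.0398). A pseudocount of 1 left 0 members called, with 9 still at an adjusted p under 0.05, since it shrinks the changes of low genes, and 146 features called higher and 85 lower against 353 and 185. Without 1 library the features called higher ran from 316 to 484 and lower from 251 to 331, above 1.5 times the 185 without WT replicate 1 (331), WT replicate 2 (296) or KO replicate 1 (306). The median of the tested members was -0.12, ran from -0.25 to -0.12 without 1 library, and was -0.018 over all 43 with no filter, -0.23 over the 25 at a mean of at least 1 FPKM and -0.047 with rescaling to features with a symbol, where that of all tested features was 0.049. Rescaling gave 430 features called higher and 159 lower. The sign turned for members near 0. Under quantile normalization, the log2 change was -0.017 for *Sycp1*, -0.038 for *Rec8* and -0.062 for *Tex15*. With rescaling to features with a symbol, *Tex11* was at 0.056 and *Tdrd1* at 0.044. Without 1 library, the log2 change ran from -0.33 to 0.35 for *Sycp1*, -0.18 to 0.18 for *Rec8*, -0.28 to 0.31 for *Tex15*, -0.26 to 0.23 for *Tex11*, -0.15 to 0.11 for *Tdrd1*, -0.032 to 0.11 for *Stag3*, -0.26 to 0.049 for *Mael* and -0.29 to 0.12 for *Dazl*. The causes were not tested.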
